A study of Mus musculus with 6 samples.

Results

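Cxcl12, the gene of the chemokine SDF-1, its receptors Cxcr4 and Ackr3 (formerly Cxcr7), and Dpp4, the gene of the protease CD26, were followed in CD73+ and CD73- AD-MSCs. These are 4 of the 18193 genes that the arrays could be read for, and they were chosen by name. All probe sets (groups of short probes that together read a transcript) annotated to only 1 of these genes were kept, which gave 9 of 45037 probe sets: 3 for Cxcl12, 1 for Cxcr4, 1 for Ackr3 and 4 for Dpp4. AD-MSCs are stromal cells grown from adipose tissue, here from the groin fat of adult C57BL/6 mice. They were stained for CD73, the cell surface enzyme that makes adenosine, sorted by flow cytometry into a positive and a negative subgroup, and cultured again in the same low sugar medium with serum. The arrays were made from cells of the fifth passage. No agent or transgene was used in either subgroup. Total RNA of each subgroup was hybridised to 3 Affymetrix arrays, and the sources used here do not say whether the 3 came from separate mice or cultures. The p-values therefore cover array-to-array spread alone, and that spread may be technical.

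SDF-1 is a small secreted chemokine that stromal cells make and that holds or attracts haematopoietic and endothelial progenitor cells. It signals through Cxcr4, a G protein-coupled receptor. Ackr3 is an atypical receptor that binds the same ligand, recruits beta-arrestin and removes the ligand from the surroundings. Dpp4 cuts a dipeptide from the amino end of SDF-1, after which the chemokine no longer activates Cxcr4. In the bone marrow the chief sources of SDF-1 are perivascular stromal cells, and in fat Dpp4 marks an interstitial progenitor population.

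Values were log2 signals as deposited, on which array medians lay between 5.28 and 5.37 and the 25th percentiles between 3.83 and 3.92. A difference is the log2 mean of CD73+ minus that of CD73- AD-MSCs, and each gene is given by its brightest probe set over the 6 arrays. A call is an adjusted p under 0.05 from limma, adjusted over all probe sets. Of all probe sets 18.9% were called. Those higher in CD73+ AD-MSCs made up 9.79% and those lower 9.11%. Poly-A control transcripts, which are usually spiked into the sample RNA ahead of labelling and have 12 probe sets here, had array means of 7.70 to 7.84 in CD73+ and 8.64 to 8.71 in CD73- AD-MSCs, a difference of -0.93. The hybridisation controls, 18 probe sets whose targets are added after labelling, also differed without overlap, with array means of 10.6 to 10.7 in CD73+ and 10.8 to 10.9 in CD73- AD-MSCs and a difference of -0.23. Scaling the arrays to the poly-A controls instead made 44707 probe sets higher and 33 lower, so every direction below is relative to the deposited scale, and both values are given for a named gene or a list median whose direction turned. On the control probe sets for actin, the log2 ratio of the 3' to the 5' end, by which RNA integrity is judged, averaged 0.084 ± 0.014 (SD, n = 3) in the positive and 0.19 ± 0.028 (SD, n = 3) in the negative subgroup. For Gapdh it was -0.27 ± 0.035 and -0.30 ± 0.023. The part of these control and RNA values in the differences below was not tested.

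Cxcl12 and Ackr3 were higher in CD73+ AD-MSCs, and no call was made for Cxcr4 or Dpp4. Cxcl12 was 2.20-fold higher and Ackr3, from a low signal, 1.61-fold higher. The Ackr3 call was lost in 4 of the 6 fits that left out 1 array, while that of Cxcl12 was kept in all 6. By probe set, 3 of 9 were called higher and 0 lower, beside 9.79% and 9.11% of all probe sets. The same 3 had values that did not overlap between the subgroups, as did 34.9% of all probe sets. Since the RNA came from whole cultures, more cells of a kind and more RNA per cell cannot be told apart.

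The ligand gene carried the clearest difference. On probe set 1448823_at, the brightest of Cxcl12, the log2 signals were 8.31, 8.30 and 8.11 in CD73- replicates 1 to 3. In CD73+ replicates 1 to 3 they were 9.34, 9.39 and 9.41. All CD73+ arrays lay above all CD73- arrays, and the gap between the subgroups was far wider than the spread within either. The mean was 9.38 ± 0.035 (SD, n = 3) after sorting for CD73 and 8.24 ± 0.11 (SD, n = 3) in the negative subgroup. The difference of 1.14 had a 95% interval of 0.97 to 1.31, which is a fold of 1.96 to 2.47 (adjusted p = 0.000166 from limma). From the top, this difference was rank 97 of 45037 probe sets.

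A further probe set of Cxcl12, 1417574_at, moved the same way. Its log2 signals were 7.12, 7.24 and 7.09 in CD73- replicates 1 to 3. They were 8.08, 8.03 and 8.07 in CD73+ replicates 1 to 3. Again the subgroups did not overlap, and the difference of 0.91 had a 95% interval of 0.76 to 1.05 (adjusted p = 0.000219 from limma). The rise was larger on the brightest probe set. The log2 ratio of the first to this probe set within an array averaged 1.32 ± 0.051 (SD, n = 3) in the positive and 1.09 ± 0.093 (SD, n = 3) in the negative subgroup, with no overlap. Its difference of 0.23 had p = 0.1 in an exact permutation test (two-sided), the smallest that 3 against 3 arrays allow.

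The remaining Cxcl12 probe set, 1439084_at, did not separate the subgroups. It lay at 4.36, 4.73 and 4.77 in CD73- replicates 1 to 3 and at 4.67, 4.64 and 4.57 in CD73+ replicates 1 to 3. These signals were below the median of every array, at percentiles 34.8 to 41.0, and CD73- replicate 1 alone stood apart. The difference was 0.0089 with a 95% interval of -0.25 to 0.27 (adjusted p = 0.972 from limma). A rise in signal as large as on the other probe sets lies outside this interval. The interval is for the array signal, and at dim signals a change in mRNA may not be detectable. Which Cxcl12 transcripts each probe set reads was not analysed here, although RefSeq lists 3 mRNAs for the gene. The mean of the 3 probe sets was still called higher, by 0.69.

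The scavenging receptor was measured near the dim end of the arrays. Ackr3 had 1 probe set, 1417625_s_at, with log2 signals of 3.36, 3.31 and 3.78 in CD73- replicates 1 to 3. In CD73+ replicates 1 to 3 it had 4.40, 4.20 and 3.91. All CD73+ values were above all CD73- values, but CD73- replicate 3 and CD73+ replicate 3 lay close together. The signals fell between percentiles 14.9 and 34.6 of their arrays. The means were 4.17 ± 0.25 (SD, n = 3) and 3.48 ± 0.26 (SD, n = 3), the SD being larger than for the called Cxcl12 probe sets. The difference of 0.69 had a 95% interval of 0.32 to 1.06, a fold of 1.24 to 2.09 (adjusted p = 0.0223 from limma). The call ended without CD73- replicate 1 (0.63, limma adjusted p = 0.0804), without CD73- replicate 2 (0.60, adjusted p = 0.0809), without CD73+ replicate 1 (0.57, adjusted p = 0.0727) and without CD73+ replicate 2 (0.67, adjusted p = 0.0688). The difference stayed above 0 whichever array was left out.

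Cxcr4, the signalling receptor, lay at the floor of the arrays in both subgroups. Its only probe set, 1448710_at, had log2 signals of 2.82, 2.61 and 2.67 in CD73- replicates 1 to 3 and of 2.85, 2.68 and 2.74 in CD73+ replicates 1 to 3. The subgroups overlapped, and all values lay between percentiles 2.98 and 5.93 of their arrays. The difference was 0.055 with a 95% interval of -0.13 to 0.24 (adjusted p = 0.714 from limma). At such signals a change in a low level of Cxcr4 mRNA may not be detectable. After scaling to the poly-A controls the difference was 0.98, about the shift of all probe sets, whose median was then 0.93.

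Dpp4 was not called on any of its 4 probe sets. On the brightest, 1438279_at, the log2 signals were 4.90, 4.99 and 5.23 in CD73- replicates 1 to 3 and 5.09, 4.91 and 4.86 in CD73+ replicates 1 to 3. The subgroups overlapped, and the difference was -0.084 with a 95% interval of -0.33 to 0.16 (adjusted p = 0.663 from limma). The signals lay between percentiles 42.7 and 47.9, below the array medians. On the others the differences were -0.020 (1441342_at), -0.10 (1416697_at) and -0.0041 (1459973_x_at), with adjusted p from 0.467 to 0.982 from limma, at percentiles between 4.20 and 29.6. Together the 4 intervals allow a fall to 0.80 of the CD73- signal (1438279_at) or a rise to 1.12 times it (1459973_x_at). These bounds are for the array signal, and at dim signals a change in mRNA may not be detectable. Without CD73- replicate 3 the brightest had a difference of 0.011, and with poly-A scaling the 4 differences were 0.83 to 0.92.

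**Figure D1:**
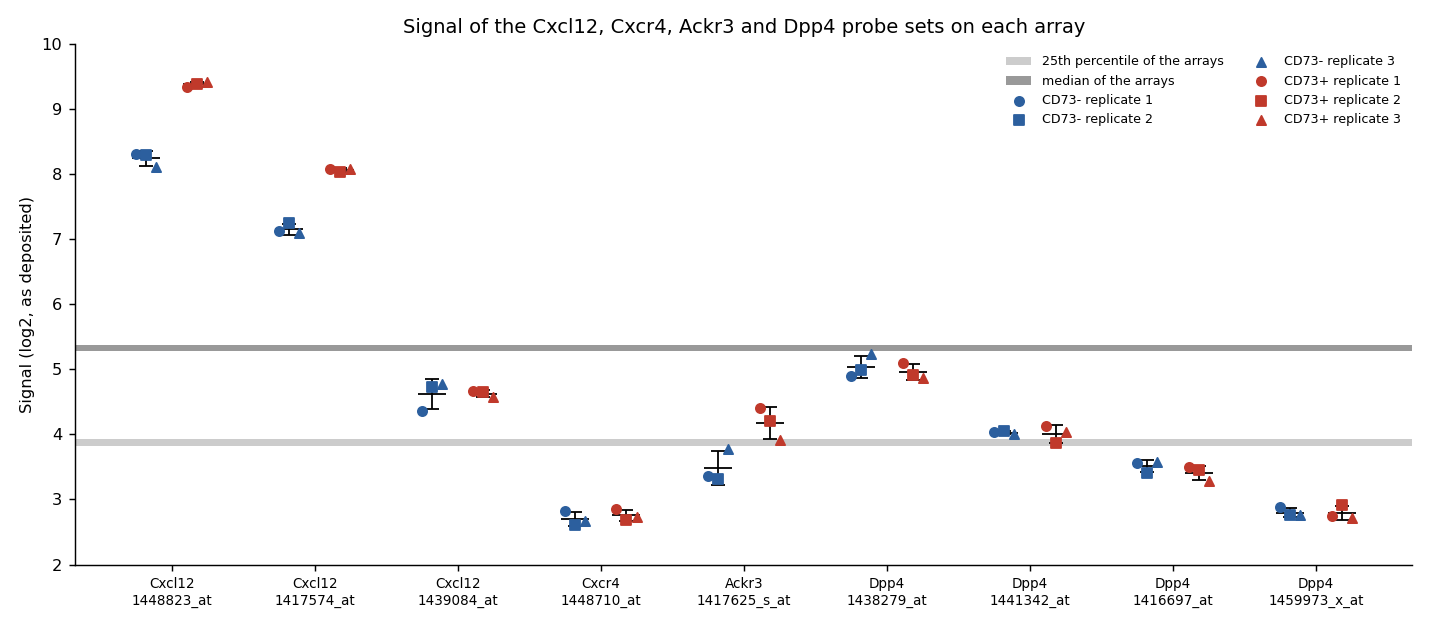
Log2 signal (vertical axis) of each of the 9 probe sets on the 3 CD73- (blue) and 3 CD73+ (red) arrays, where lines are subgroup means and bars their SD. The grey bands are the range of the array medians, 5.28 to 5.37, and of the 25th percentiles, 3.83 to 3.92; both Cxcl12 probe sets above the medians separate the subgroups, Ackr3 does so near the lower band, and Cxcr4 lies under 3.

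**Figure D2:**
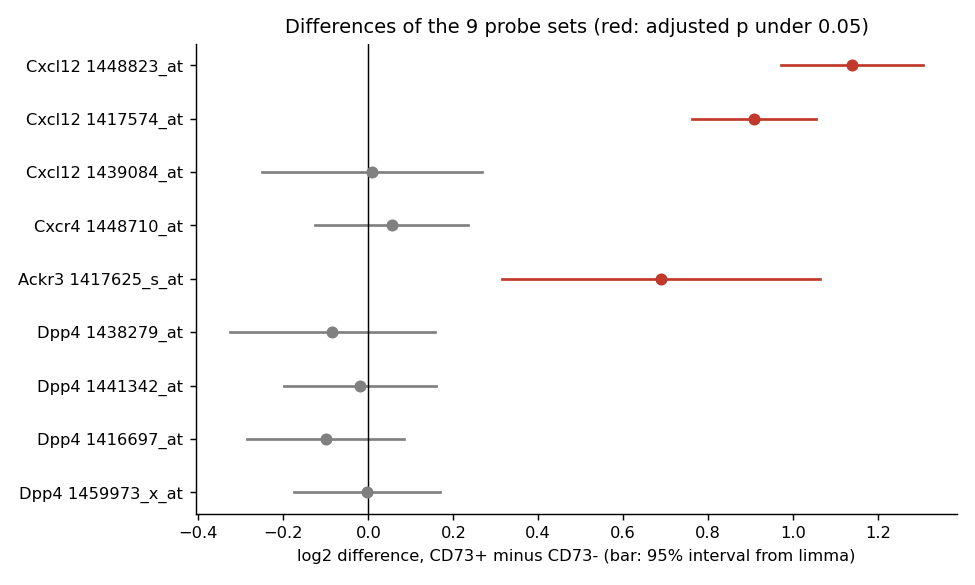
Difference between the subgroups (log2 signal, CD73+ minus CD73-) of the 9 probe sets with 95% intervals from limma (3 arrays per subgroup), on the deposited scale. The red intervals, of 2 Cxcl12 probe sets and of Ackr3, lie above 0, and the 6 grey ones include 0; after scaling to the poly-A controls all 4 Dpp4 differences, which are below 0 here, were above it.

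Both genes that rose are shown with the 250 bases before their annotated start, since both rose. RefSeq places Cxcl12 on chromosome 6 and Ackr3 on chromosome 1 of GRCm38.p6, and the windows are chr6:117168285-117168534 and chr1:90203730-90203979, both on the plus strand. Capitals mark matches on either strand to the GC box GGGCGG, to the hypoxia response core ACGTG or GCGTG, and to the TATA box TATAAA. Adjoining GC boxes of Cxcl12 overlap by a base.
Cxcl12: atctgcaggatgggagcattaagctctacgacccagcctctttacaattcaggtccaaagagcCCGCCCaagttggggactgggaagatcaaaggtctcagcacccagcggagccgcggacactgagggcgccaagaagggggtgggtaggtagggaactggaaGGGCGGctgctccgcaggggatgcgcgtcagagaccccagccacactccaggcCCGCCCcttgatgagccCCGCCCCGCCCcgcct
Ackr3: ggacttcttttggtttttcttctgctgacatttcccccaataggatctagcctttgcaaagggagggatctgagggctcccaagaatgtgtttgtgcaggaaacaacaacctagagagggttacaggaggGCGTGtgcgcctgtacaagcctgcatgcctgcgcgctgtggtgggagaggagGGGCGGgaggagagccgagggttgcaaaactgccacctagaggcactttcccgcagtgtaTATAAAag
The Cxcl12 window held 5 GC boxes, 0 hypoxia cores and 0 TATA boxes, and 64.4% of its bases were G or C. The Ackr3 window held 1 of each motif, and 54.0% of its bases were G or C. Of the genes that were not called, the Cxcr4 window had 3 GC boxes, 1 hypoxia core and 2 TATA box matches, which lie on opposite strands and overlap. The Dpp4 window had 0, 0 and 1. That window, chr2:62412232-62412481 on the minus strand, reaches into the RefSeq span of the gene, which ends at base 62412315. Of 32851 windows of this length in the RefSeq table, 32.7% held a GC box, 38.6% a hypoxia core and 12.4% a TATA box, and the median G and C share was 52.4%. These matches describe the letters only.

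Cxcl12 was among the chemokine ligands with the largest rise. Its difference was rank 3 of 34 measured ligands, behind Ppbp (1.29), a platelet chemokine, and Cxcl5 (1.27), a neutrophil attractant whose CD73- signal of 3.20 ± 0.17 (SD, n = 3) was dim. Of the 33 other ligands 11 were higher and 5 lower, beside 10.1% and 12.6% of the 18193 genes, the shares against which each gene list below is to be read, and their median difference was 0.056, beside -0.018 for all genes. The ligands that fell on the deposited scale were Cxcl11 (-0.94), Ccl5 (-0.92), Cxcl10 (-0.52), Cxcl16 (-0.29) and Ccl24 (-0.27). Cxcl11 and Cxcl10 are interferon-induced ligands of Cxcr3, and Ccl5 attracts T cells and monocytes. With poly-A scaling Cxcl11 had -0.015 and Ccl5 0.0022, neither called, and the other 3 were called higher, by 0.40, 0.63 and 0.65. Cxcl16 lost its call when CD73- replicate 2 or else CD73+ replicate 1 was left out (limma adjusted p 0.0509 to 0.0594). The Ccl24 call ended without any 1 array except CD73+ replicate 3 (limma adjusted p 0.069 to 0.15).

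Among chemokine receptors few signals differed. Of 19 others measured, 1 was higher and 0 lower, and the median was -0.032 (0.89 with poly-A scaling). That gene was Cxcr6, the receptor of Cxcl16, which rose by 1.07 (5.45 ± 0.30 to 6.52 ± 0.16, SD, n = 3; adjusted p = 0.00315 from limma). Among these 19 and itself Ackr3 had the next highest signed difference after Cxcr6. Of these 19, 13 had a mean signal below the median of all probe sets, as Ackr3 and Cxcr4 did.

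Other ligands and receptors that share Cxcr4 or Ackr3 were few. Of 9 measured, 1 was higher (11.1%) and 2 lower (22.2%), with a median of 0.13. Cxcl11, which Ackr3 also binds, fell by 0.94 on the deposited scale (adjusted p = 0.00148 from limma), on 1 of its 2 probe sets. Calcrl, the receptor of adrenomedullin, which Ackr3 is known to scavenge, fell by 0.61 (adjusted p = 0.000565 from limma) on the deposited scale and was 0.32 higher with poly-A scaling. Penk, the precursor of opioid peptides that Ackr3 takes up, rose by 0.30 (adjusted p = 0.0312 from limma), a call that ended without any 1 array except CD73- replicate 3 (limma adjusted p 0.0508 to 0.109). Mif, another ligand of Cxcr4, had a difference of 0.16 and its receptor chain Cd74 one of 0.13 (adjusted p = 0.0815 and 0.212 from limma); neither is among the genes that the naming rule picks.

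Proteases that trim SDF-1, and relatives of Dpp4, were called about as often as genes in general. Of 14 measured, 2 were higher and 2 lower, 14.3% each beside 10.1% and 12.6% of all genes, with a median of 0.080. The matrix metalloproteases Mmp2 and Mmp14, which can remove the amino end of SDF-1, rose by 0.44 (adjusted p = 0.00396 from limma) and 0.42 (adjusted p = 0.0024 from limma), on all of their probe sets. The intracellular dipeptidyl peptidases Dpp8 and Dpp7 fell by 0.43 and 0.31 on the deposited scale, and were 0.49 and 0.61 higher with poly-A scaling. Another probe set of Dpp8 rose by 0.40, the mean of its probe sets was not called (-0.075, limma adjusted p = 0.391), and the Dpp7 call ended without CD73- replicate 2 (limma adjusted p 0.0584).

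Proteoglycans and enzymes of heparan sulfate, the sugar chain that holds SDF-1 at the cell surface, included several that rose. Of 19 measured, 9 were higher (47.4%) and 1 lower (5.26%), beside 10.1% and 12.6% of all genes, with a median of 0.17. Only 1 of the 19 had a mean below the median of all probe sets, and bright probe sets were called more often. In a fit of the 22518 probe sets above that median, 5181 were higher and 5111 lower. Sdc1 and Sdc4, both syndecans, rose by 1.08 (adjusted p = 0.000783 from limma) and 0.95 (adjusted p = 0.000219 from limma), on all of their probe sets. The higher genes also included the sulfatases Sulf2 (0.46, on 1 of 3 probe sets) and Sulf1 (0.33, on 2 of 3). The count thus mixes carriers of the chain with enzymes that alter it, and does not measure how much SDF-1 is held. Sdc1 averaged 9.36 ± 0.056 (SD, n = 3) in the positive and 8.29 ± 0.22 (SD, n = 3) in the negative subgroup, with no overlap. Glce, an epimerase that shapes the chain, fell by 0.32 on the deposited scale and was 0.61 higher with poly-A scaling.

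Signalling genes downstream of the receptors were mostly not called. Of 25 measured, 4 were higher (16%), 1 lower (4%) and 20 not called, with a median of 0.087. Rgs4, which shortens G protein signals, rose by 1.11 (adjusted p = 0.000163 from limma) on all 3 of its probe sets, and Rgs2, of the same family, by 0.49. Pxn, the focal adhesion protein paxillin, rose by 0.34 on 1 of 3 probe sets, and Gnai2, the inhibitory G protein subunit that Cxcr4 uses, by 0.25. Gnb1, a G protein beta subunit, fell by 0.36 on the deposited scale, while another of its probe sets rose by 0.27, and it was 0.56 higher with poly-A scaling. The mean of the Gnb1 probe sets was not called (-0.051, limma adjusted p = 0.588). The Rgs2 call ended without any 1 array except CD73+ replicate 1 (limma adjusted p 0.0543 to 0.0817), and Gnai2 was no longer called when replicate 1 or 2 of either subgroup was left out (limma adjusted p 0.0637 to 0.082). Over the 6 fits that leave out 1 array, the number of higher genes in this list ran from 2 to 5.

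**Figure D3:**
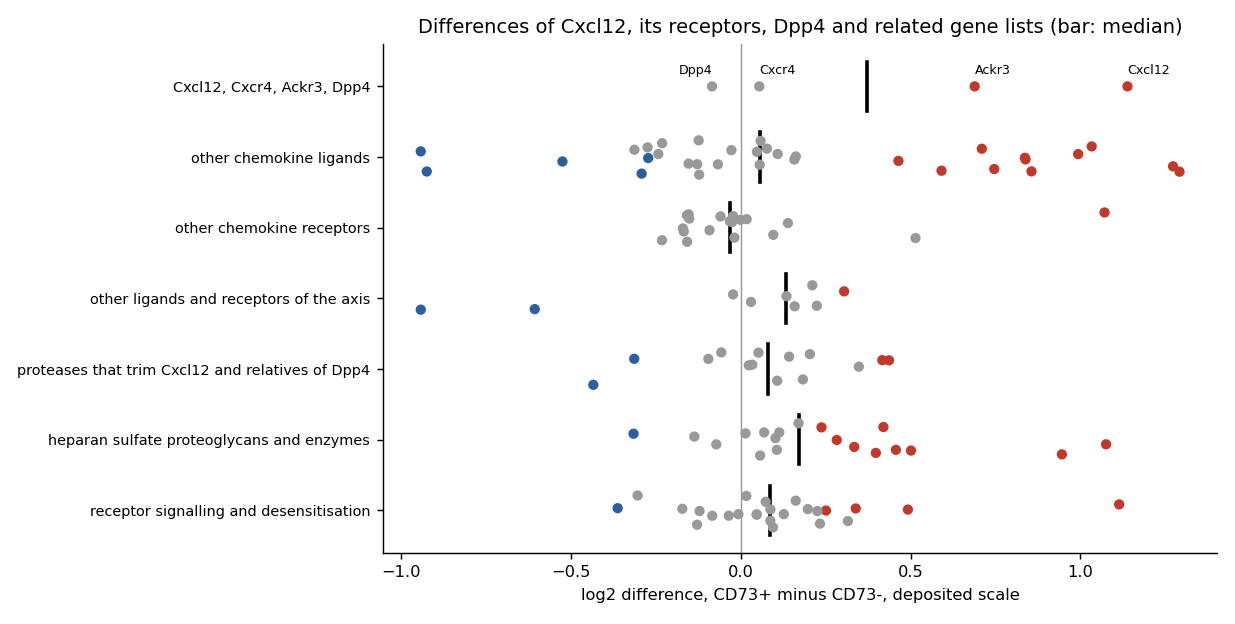
Difference between the subgroups (log2 signal, CD73+ minus CD73-) of every gene of the lists (each point is a gene; black bars are medians). Red points were called higher and blue points lower on the deposited scale, grey ones were not called, and with poly-A scaling no gene shown was called lower; Cxcl12 at 1.14 and Ackr3 at 0.69 stand with the red points of the ligand and heparan sulfate lists.

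The labelled cell type was checked on surface markers of stromal cells. Of 7 measured, 3 rose and 0 fell, and 0 had a mean below the median of all probe sets. Thy1 rose by 0.65 and Pdgfra, a growth factor receptor of stromal cells, by 0.64. Nt5e, the gene of CD73 that the sort used, rose by 0.88 on its brightest probe set (limma adjusted p = 0.0218), while the others of the gene did not pass, and neither did their mean (0.27, limma adjusted p = 0.101). It no longer passed when replicate 3 of either subgroup or CD73+ replicate 1 was left out (limma adjusted p 0.0564 to 0.0763).

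Markers of cells other than stroma that can carry these genes were mostly dim. Of 11 leukocyte markers, which matter for Cxcr4, 1 was higher and 0 lower, and only 6 had means below the median of all probe sets. The gene called was Csf1r, a receptor of macrophages, which rose by 0.49 (adjusted p = 0.00777 from limma) and had its mean at percentile 65.6 of all probe sets. Ptprc, the pan-leukocyte gene of CD45, was the dimmest of the list. Its mean signal over the 6 arrays was 3.12, at percentile 10.6. The summed linear signal of the leukocyte list ran from 408 to 433 on CD73+ arrays and from 367 to 396 on CD73- arrays. Csf1r, the brightest of the list, weighs most in this sum. On the deposited scale 8 of the 11 had a difference above 0, and the others, Ptprc among them, one below it. Of 10 endothelial markers, which matter for Ackr3, 0 were called, and 9 had means below the median of all probe sets. Their summed linear signal ran from 236 to 254 on CD73+ arrays and from 244 to 258 on CD73- arrays, and Emcn (0.14) and Esam (-0.19, or 0.74 with poly-A scaling) had the smallest p among them on the deposited scale. Of 6 pericyte markers 0 were called on their brightest probe sets, but 1 of the 2 of Cspg4 was called lower. The summed signals were 322 to 351 and 297 to 315, in which Mcam, the brightest, weighs most. Mcam had a difference of 0.25 and Rgs5 one of 0.32 (adjusted p = 0.0528 and 0.0726 from limma), and without 1 array each passed, Mcam (limma adjusted p = 0.0282) when this was CD73- replicate 1 and Rgs5 (limma adjusted p = 0.0448) when it was CD73+ replicate 3. Mcam was also called higher with cyclic loess, array weights, a trended prior and the filter for bright probe sets (limma adjusted p 0.0155 to 0.0450), and with poly-A scaling. The part of leukocytes and pericytes in the results for Cxcl12 and Ackr3 was not tested.

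Genes of Cxcl12-rich marrow stroma and of adipose stromal states were read beside Cxcl12 and Dpp4. Of 13 genes of Cxcl12-rich marrow stroma 5 were higher and 1 lower, with a median of 0.034. Pdgfra, Vcam1, an adhesion molecule, and Prrx1, a mesenchymal transcription factor, rose by 0.64, 0.63 and 0.63, Ebf3, a transcription factor of these cells, by 0.44 and Pdgfrb by 0.36. Foxc1, a transcription factor these cells need, fell by 0.23 on the deposited scale and was 0.70 higher with poly-A scaling. The mean of the Foxc1 probe sets was not called (-0.11, limma adjusted p = 0.161). Foxc1 was called in only 1 of the 6 fits that leave out an array, the one without CD73- replicate 3 (limma adjusted p 0.0809 to 0.114 in the others), and Pdgfrb was not called (limma adjusted p = 0.051) once CD73+ replicate 2 was left out. Kitl, Lepr and the rest were not called on their brightest probe sets. Of their other probe sets, 2 of the 4 of Kitl and 1 of the 2 of Il7 were called lower, and 1 of the 5 of Ebf1 higher.

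Of 9 markers of Dpp4-positive adipose progenitors, 2 were higher and 1 lower, with a median of 0.049. Cd55, a complement inhibitor, rose by 0.43 on all 3 probe sets from a dim 3.19 ± 0.085 (SD, n = 3), and Sema3c, a guidance protein, rose by 0.37 on 1 of 2 probe sets. Anxa3, an annexin, fell by 0.31 on the deposited scale and was 0.61 higher with poly-A scaling. Creb5 was not called on its brightest probe set, but 1 of its 4 probe sets was called lower. Of 10 genes of committed preadipocytes 4 were higher and 1 lower, with a median of -0.013 (0.91 with poly-A scaling). Aoc3, a vascular adhesion protein, rose by 1.70, Peg3 by 0.77, Adam12, a metalloprotease, by 0.52 and Dlk1, an inhibitor of adipogenesis, by 0.39. Pparg, the master regulator of fat cells, fell by 0.24 on the deposited scale and was 0.69 higher with poly-A scaling. Fabp4 and Lpl were not called on their brightest probe sets, but 2 of the 4 of Fabp4 were called higher and 1 of the 2 of Lpl lower. Dlk1 was not called when replicate 1 of either subgroup or CD73- replicate 2 was left out (limma adjusted p 0.0523 to 0.0851), and Pparg was called in none of these fits but that without CD73- replicate 3 (limma adjusted p 0.0552 to 0.0952). Of 6 genes of adipogenesis-regulatory stroma 0 were called, with F3 at -0.12 and Fmo2 at -0.089 (0.81 and 0.84 with poly-A scaling), and their median was -0.0022 (0.92 with poly-A scaling).

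The genes whose signals followed Cxcl12 most closely over the 6 arrays were found by Pearson's r among 8924 genes above the median level. The highest r were those of Pcolce2, an enhancer of procollagen processing (0.9998), Prdx2, a peroxidase (0.9997), Il10rb, a shared cytokine receptor chain (0.9992), Tmem45a (0.9992) and Gsta4, a glutathione transferase (0.9992). They rose by 1.36, 0.55, 0.33, 0.92 and 0.91. The lowest were those of Fzd3, a Wnt receptor (-0.9990), Pafah1b1, a dynein regulator (-0.9989), Lonrf1 (-0.9987), the non-coding RNA Zfas1 (-0.9986) and Dgat2, an enzyme of triglyceride synthesis (-0.9983). On the deposited scale these fell by 0.35, 0.55, 0.63, 0.41 and 0.38, and with poly-A scaling they were 0.30 to 0.58 higher. By the mean of all their probe sets Fzd3 had -0.097 and Pafah1b1 0.015, neither called (limma adjusted p = 0.216 and 0.874). As the arrays fall into 2 subgroups, r mostly repeats the difference between them: 19.9% of the genes compared had r over 0.9 and 21.8% had r under -0.9.

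Across the settings tried, Cxcl12 kept its call in all 18 alternatives, with differences from 0.69 for the mean of its probe sets to 2.06 with poly-A scaling. Leaving out any 1 array gave 1.07 to 1.18 (adjusted p from limma 0.000841 to 0.00169). Ackr3 kept its direction in all 15 alternatives and its call in 9. Its call also ended when each probe set was tested with its own variance and with a replicate block. Cxcr4 and Dpp4 were called with poly-A scaling alone among the alternatives that could be computed.

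**Figure D4:**
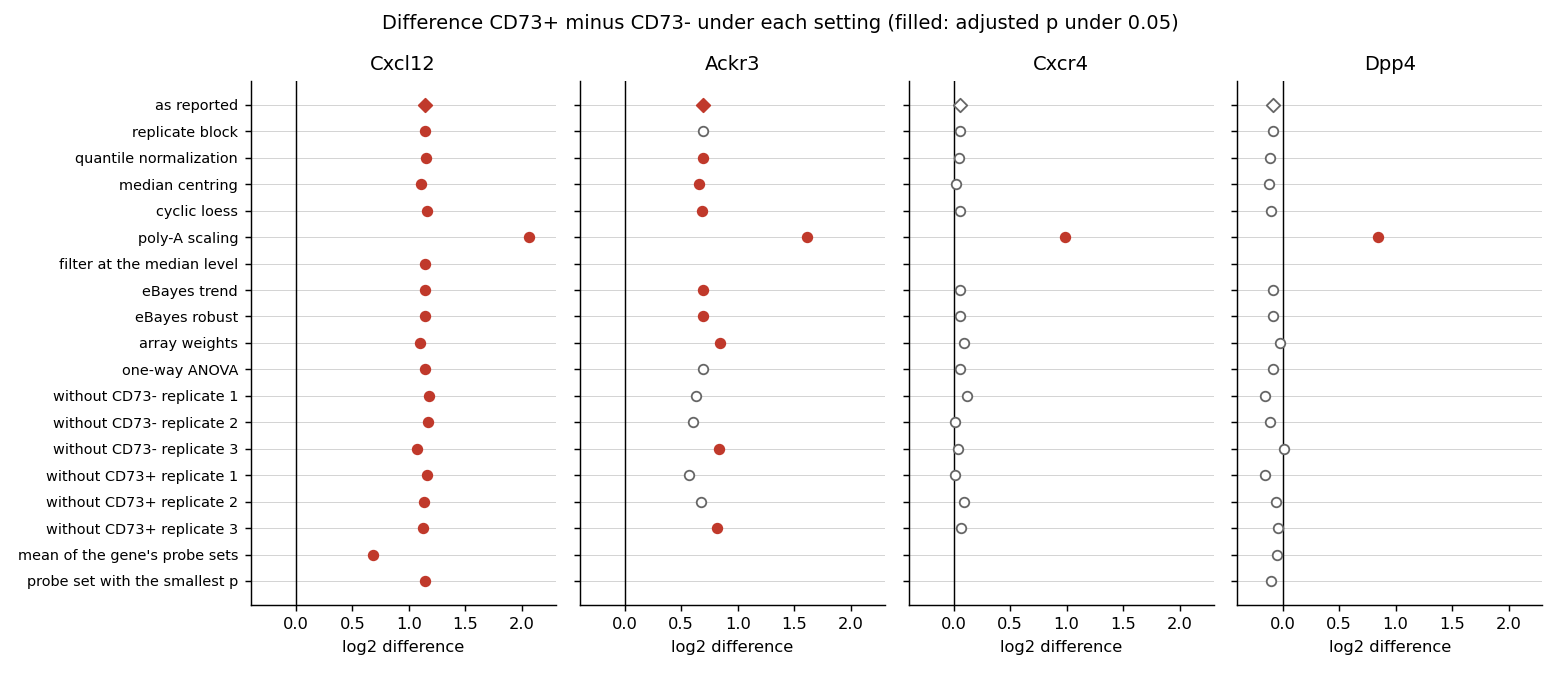
Difference between the subgroups in log2 signal (horizontal axis, CD73+ minus CD73-) of Cxcl12, Ackr3, Cxcr4 and Dpp4 under each setting (vertical axis); filled symbols passed an adjusted p under 0.05 and diamonds are the reported values. Cxcl12 stays filled throughout, between 0.69 and 2.06, Ackr3 opens when any of 4 arrays is left out, under the replicate block and when each probe set is tested with its own variance, and Cxcr4 and Dpp4 are filled, at 0.98 and 0.84, with poly-A scaling alone; points are missing where a setting gives no value.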

How the data were processed

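Signals were used on the log2 scale on which the authors deposited them, for 45101 probe sets and 6 arrays (3 per subgroup). The submitters' processing notes name RMA, which subtracts background, evens out the distributions of the arrays and condenses the probes of a probe set. A shift common to most transcripts is thereby lost, and ratios can shrink, above all at dim signals. The version of RMA is not given in the sources used here. No detection calls were used. The methods name one-way ANOVA for the study as a whole and no test for single genes on arrays. Here the 64 controls of the array were left out, and the remaining 45037 probe sets entered a linear model by subgroup (limma 3.58.1, functions lmFit and eBayes, run under R 4.3.3), without replicate block or filter. P-values were adjusted by Benjamini-Hochberg across that whole table. The platform annotation gives 34945 of these 1 symbol, 932 several and 9160 none, and only the first kind was named. The fit was tested on simulated data.

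The members and gene lists were chosen with earlier results of these data known, and the lists, compiled by hand from general knowledge, are described by counts and medians with no set test. Named were all probe sets of the members, the 2 largest rises and falls called in each list (the 2 smallest p where none was called; all where 5 or fewer were called in a direction), and the 5 genes with the highest and the 5 with the lowest r with Cxcl12. The values of Mif, Cd74, Ptprc, Sulf1, Sulf2, Cxcl1, Ccl7 and Ccl2, the counts of other probe sets, and the ranks were added after the values were seen.

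Alternatives changed the scaling (quantile, cyclic loess, median centring, poly-A controls), the model (a replicate block, array weights, a trended or robust prior, one-way ANOVA), the filter (probe sets above the median mean only) and the probe set taken for a gene, and left out each array in turn. Promoter letters came from RefSeq tables for GRCm38.p6, where all 4 members matched by symbol. The number of arrays limits the precision. Plots used Python 3.11.15 and its package matplotlib 3.10.9.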

Additional observations from a re-analysis of the deposited data

How the results depend on the processing

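The Cxcl12 call held in every alternative run. The Ackr3 difference stayed at 0.69 with a replicate block and with one-way ANOVA but missed the threshold there (adjusted p = 0.0685 and 0.123), and without 1 array it ran from 0.57 to 0.84. Same-numbered arrays had correlations of -0.14, 0.028 and -0.14 between their deviations from the subgroup means. With so few arrays per subgroup, these correlations cannot show whether same-numbered arrays came from the same mouse or culture. With the replicate block 3080 probe sets were higher and 2713 lower in place of 4408 and 4105. Without 1 array the counts ran from 2794 to 4199 higher and from 2525 to 3907 lower, the lowest of both without CD73+ replicate 1. Higher counts also fell by over 1.5 times without CD73+ replicate 2 (2896), and lower ones without CD73- replicate 2 (2563). Median centring gave 3451 higher and 4382 lower.

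Poly-A scaling moved most: 44707 probe sets were higher and 33 lower, Cxcr4 was called at 0.98 and Dpp4 at 0.84, and its other probe sets gave 0.91, 0.83 and 0.92. The list medians became 1.06 (other ligands and receptors), 1.01 (proteases), 1.10 (heparan sulfate), 1.01 (signalling), 0.98 (chemokine ligands) and 0.89 (chemokine receptors). Falls that turned gave 0.32 (Calcrl), 0.61 (Dpp7), 0.49 (Dpp8), 0.61 (Glce), 0.56 (Gnb1), 0.65 (Ccl24), 0.63 (Cxcl16), 0.40 (Cxcl10), 0.0022 (Ccl5), 0.70 (Foxc1), 0.61 (Anxa3), 0.69 (Pparg), 0.84 (Fmo2), 0.81 (F3), 0.74 (Esam), 0.58 (Fzd3), 0.38 (Pafah1b1), 0.30 (Lonrf1), 0.51 (Zfas1) and 0.55 (Dgat2).

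Values near 0 changed sign elsewhere. The dim Cxcl12 probe set had -0.00846 with quantile normalization, -0.024 with median centring, -0.00297 with cyclic loess, and -0.12 to 0.083 without 1 array. Without 1 array Dpp4 ran from -0.15 to 0.011, and its other probe sets 1441342_at from -0.080 to 0.053 and 1459973_x_at from -0.063 to 0.036, the last at 0.013 with array weights. The mean of all probe sets gave 0.068 for Fmo2 and 0.015 for Pafah1b1, and the probe set with the smallest p 0.15 for Fmo2. The mean also ended the calls of Dpp8 (-0.075), Gnb1 (-0.051), Fzd3 (-0.097), Foxc1 (-0.11) and Nt5e (0.27). Calls of other named genes ended with the replicate block for Penk, Gnai2, Foxc1 and Pparg, with one-way ANOVA for Penk, Rgs2, Ccl24, Ebf3, Dlk1 and Nt5e, with quantile normalization or cyclic loess for Rgs2, with a trended prior for Penk and Ccl24, and with median centring for Gnai2. Mcam gained a call with cyclic loess, the filter, a trended prior, array weights and poly-A scaling. The heparan sulfate median was 0.14 with median centring, 0.20 with the filter, 0.33 with the smallest p and 0.13 to 0.24 without 1 array; that of signalling was 0.16 and of chemokine receptors -0.092 with the smallest p, that of chemokine receptors -0.11 to -0.028 without 1 array, and that of chemokine ligands 0.16 with the filter. The filter removed the probe sets of Cxcr4, Ackr3 and Dpp4, so it gives no value for them. The causes of these shifts were not tested.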
